A study of Rattus norvegicus with 3 samples.

Results

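The 52 rat genes whose symbols name a semaphorin, a plexin, a neuropilin, an ephrin or an Eph receptor were described in retinal RNA, out of 32883 genes in the deposited tables. They were chosen by symbol alone and comprise 28 ligand genes (20 semaphorins and 8 ephrins) and 24 receptor genes (9 plexins, 2 neuropilins and 13 Eph receptors). Retinas of Sprague-Dawley rats at postnatal day 60 gave 3 libraries of RNA depleted of ribosomal RNA, with 1 library per group. The HIOP_GSK library came from retina taken 12 h after the eye had been held at a pressure of 110 mmHg for 60 min, with a drug named only as GSK injected into the anterior chamber 24 h before. In HIOP, for high intraocular pressure, the same procedure was done with no drug. The CTL library was labelled as without treatment, while the protocol describes sham-operated eyes with a needle in the anterior chamber at 2.66 kPa, and which of these holds was not settled. The number of animals per library and the identity and dose of the drug are not stated in the labels, and an eye given vehicle only was not analysed here.

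Semaphorins and ephrins are cues that steer growing axons, and in the adult they also act on synapses, vessels and immune cells. Class 3 semaphorins are secreted and bind neuropilins, which signal through plexins. Semaphorins of classes 4 to 7 sit in the membrane, and most bind plexins directly. Ephrins are held in the membrane, ephrin-A by a lipid anchor and ephrin-B by a transmembrane segment, and they bind Eph receptor tyrosine kinases on neighbouring cells, with signals passing into both cells. In the developing retina, graded Eph receptors sort ganglion cell axons by position, and plexins with their membrane semaphorins order the inner plexiform layer, both known mainly from mouse and chick.

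The libraries held 15132754 counts in HIOP_GSK, 17221510 in HIOP and 16090064 in CTL. Of the 52 genes, 51 reached a CPM (counts scaled to library size with TMM factors) of 1 in at least 1 library, among 15543 genes in all. The gene below that level was Plxnb3, a plexin of oligodendrocytes, with 6 counts in HIOP_GSK, 1 in HIOP and 7 in CTL. Since each group is a single library, no replicates check any difference and no test was made. Ratios carry a 95% exact interval from the counts, which covers counting error only. The 2-fold limit was a log2 ratio of CPM, after a prior count of 2 was added, of at least 1 in size. In tissue RNA, fewer cells of a type and less RNA per cell cannot be told apart.

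The highest level per gene length in every library belonged to Sema7a, a lipid-anchored semaphorin that binds plexin C1 and integrin beta-1. Its deposited TPM (a transcript share that takes gene length into account) was 59 in HIOP_GSK, 61 in HIOP and 111 in CTL. Plxnb2, a receptor for class 4 semaphorins, followed with 35.8 TPM in HIOP_GSK, 37.6 in HIOP and 34.3 in CTL, and Sema6c, a transmembrane semaphorin, with 34 TPM in HIOP_GSK, 31.7 in HIOP and 53.1 in CTL. Sema6c stood above Plxnb2 in CTL and below it in both injured libraries. At the other end, Epha1 was lowest of the genes that passed the CPM minimum, with 0.76 TPM in HIOP_GSK, 0.8 in HIOP and 0.84 in CTL. Plxnb3, which did not pass it, had 0.07 TPM in HIOP_GSK, 0 in HIOP and 0.07 in CTL. Plxna2 held rank 15 by TPM in HIOP_GSK, 14 in HIOP and 5 in CTL, and Epha2 rank 13, 8 and 50 in the same order. These ranks describe 3 single libraries, and the order of genes with close values has no error attached.

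**Figure D1:**
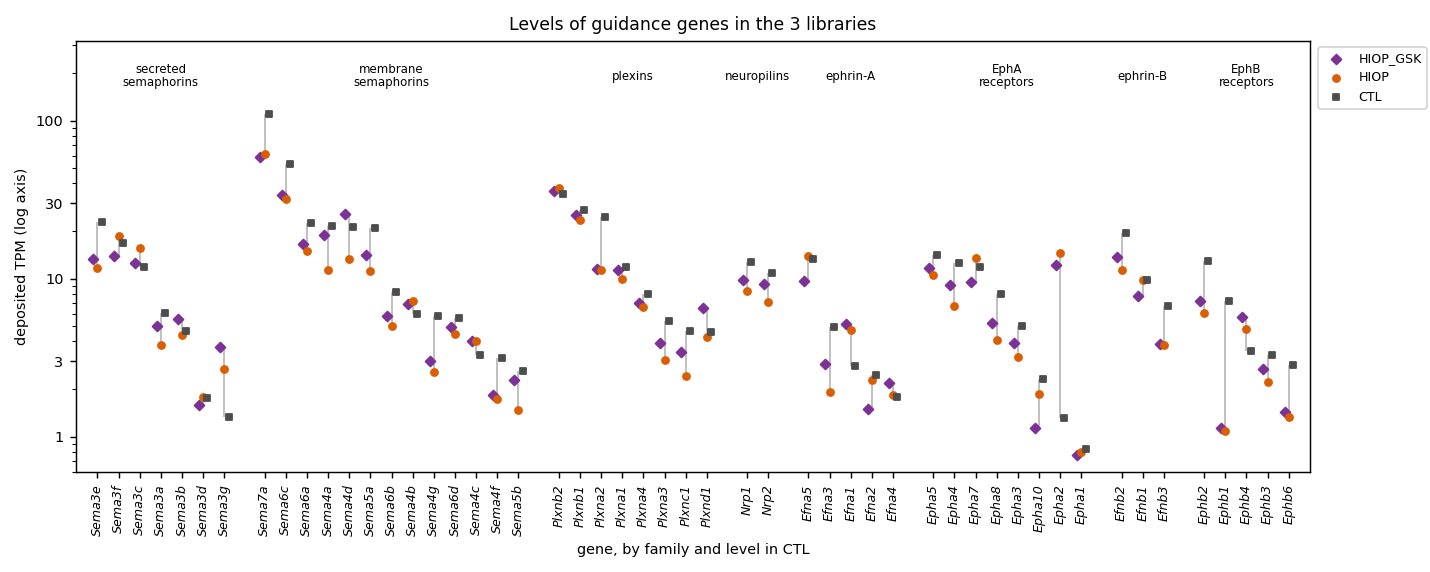
Deposited TPM on a log axis for 51 of the 52 genes, grouped by family and ordered by level in CTL; diamonds are HIOP_GSK, circles HIOP and squares CTL, 1 library each, and Plxnb3 (0 TPM in HIOP) is not drawn. Most squares lie above the circles, whereas Epha2 has 12.3 TPM in HIOP_GSK, 14.4 in HIOP and 1.32 in CTL.

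Most guidance genes were modestly lower in HIOP than in CTL, and few were far from it. Of the 51 genes, 37 (72.5%) had a ratio below 1 and 14 had a ratio above 1, whereas of all 15543 genes 49.6% had a ratio below 1 and 50.3% a ratio above 1. The median log2 ratio of the 51 genes was -0.49, against 0.00 over all genes. Only 2 members were at least 2-fold higher (3.92%, against 9% of all genes) and 4 at least 2-fold lower (7.84%, against 8.04%). With the deposited TPM these counts were 1 higher and 5 lower, beside 1038 higher and 1220 lower of the 15543 genes. At a limit of 1.5-fold, 19 were lower (37.3%, against 17.6%) and 5 were higher (9.8%, against 16.1%).

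Ligands and receptors had like medians in HIOP over CTL. The 28 ligands had a median log2 ratio of -0.48, and 19 (67.9%) had a ratio below 1. Past 2-fold were 1 ligand upward (3.57%) and 2 downward (7.14%). The 23 receptors that passed the CPM minimum had a median of -0.49, and 18 (78.3%) had a ratio below 1. Past 2-fold were 1 receptor upward (4.35%) and 2 downward (8.7%). Of all genes, 9% were past 2-fold upward and 8.04% downward, and 49.6% had a ratio below 1. Across the alternative settings the ligand median ran from -0.59 to -0.47 and the receptor median from -0.50 to -0.48. Receptors spread more widely, from -2.72 for Ephb1 to 3.43 for Epha2, against -1.11 for Efna3 to 1.29 for Sema3g among ligands.

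**Figure D2:**
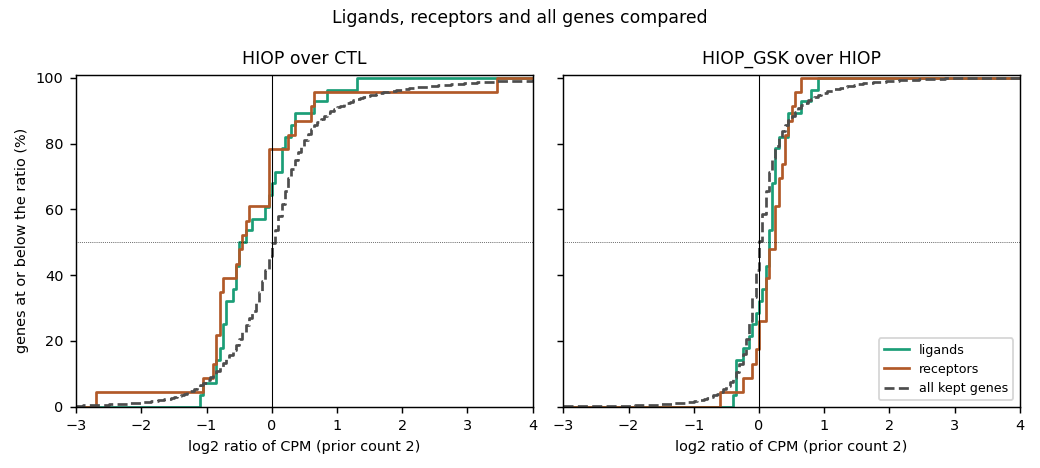
Cumulative percentage of genes at or below each log2 ratio of CPM for 28 ligands, 23 receptors and all 15543 genes that passed the CPM minimum, in HIOP over CTL (left) and HIOP_GSK over HIOP (right). On the left both coloured curves lie left of the dashed curve of all genes over most of their range, with medians of -0.48 and -0.49, and on the right they lie slightly to its right at the middle, with medians of 0.15 and 0.23.

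Among the 7 secreted semaphorins, Sema3g alone passed the 2-fold limit in HIOP over CTL, upward (14.3%, against 9% of all genes). The median log2 ratio of the 7 was 0.13. Sema3g, a class 3 semaphorin of vascular endothelium that binds neuropilin-2, had 166 counts in HIOP_GSK, 141 in HIOP and 53 in CTL. Both injured libraries lay above CTL, and HIOP was 2.5-fold higher (1.81 to 3.5). The deposited TPM gave a smaller difference, 3.71 TPM in HIOP_GSK, 2.69 in HIOP and 1.33 in CTL, and with a pseudocount of 0.5 its log2 ratio of HIOP over CTL was 0.80, below the limit. Sema3c, a secreted cue that acts through both neuropilins, had 734 counts in HIOP_GSK, 1077 in HIOP and 661 in CTL. HIOP was 1.53-fold higher (1.39 to 1.69) than CTL for this gene. Sema3e, which binds plexin D1 without a neuropilin, had 853 counts in HIOP_GSK, 837 in HIOP and 1406 in CTL and was 1.79-fold lower (1.64 to 1.95) in HIOP than in CTL. Sema3a, the classic cue for growth cone collapse, was 1.35-fold lower (1.13 to 1.63). The ratios of the other 3 secreted members (Sema3b, Sema3d and Sema3f) lay between 0.982 and 1.11.

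Of the 13 membrane semaphorins, 11 (84.6%) had ratios of HIOP over CTL below 1, against 49.6% of all genes. Their median log2 ratio was -0.56, against 0.00 over all genes. Only Sema4g passed the 2-fold limit, downward (7.69%, against 8.04% of all genes). It had 158 counts in HIOP_GSK, 161 in HIOP and 316 in CTL and was 2.09-fold lower (1.72 to 2.54) in HIOP than in CTL, and the injured libraries lay close together. Just short of the limit was Sema4f, whose protein is found at synapses, at 1.87-fold lower (1.48 to 2.37). Sema5a, which in mouse confines retinal neurites to the inner plexiform layer together with Sema5b, had 1509 counts in HIOP_GSK, 1395 in HIOP and 2408 in CTL and was 1.84-fold lower (1.72 to 1.96) in HIOP than in CTL. Sema5b was 1.72-fold lower (1.33 to 2.25). Sema7a had 1850 counts in HIOP_GSK, 2209 in HIOP and 3473 in CTL, which made HIOP 1.67-fold lower (1.58 to 1.76). Sema6a, a partner of plexins A2 and A4 in mouse retina, was 1.47-fold lower (1.34 to 1.62) and Sema6c 1.48-fold lower (1.4 to 1.57). The 2 members with ratios above 1 were Sema4b at 1.26 (1.11 to 1.42) and Sema4c at 1.19 (0.952 to 1.5).

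**Figure D3:**
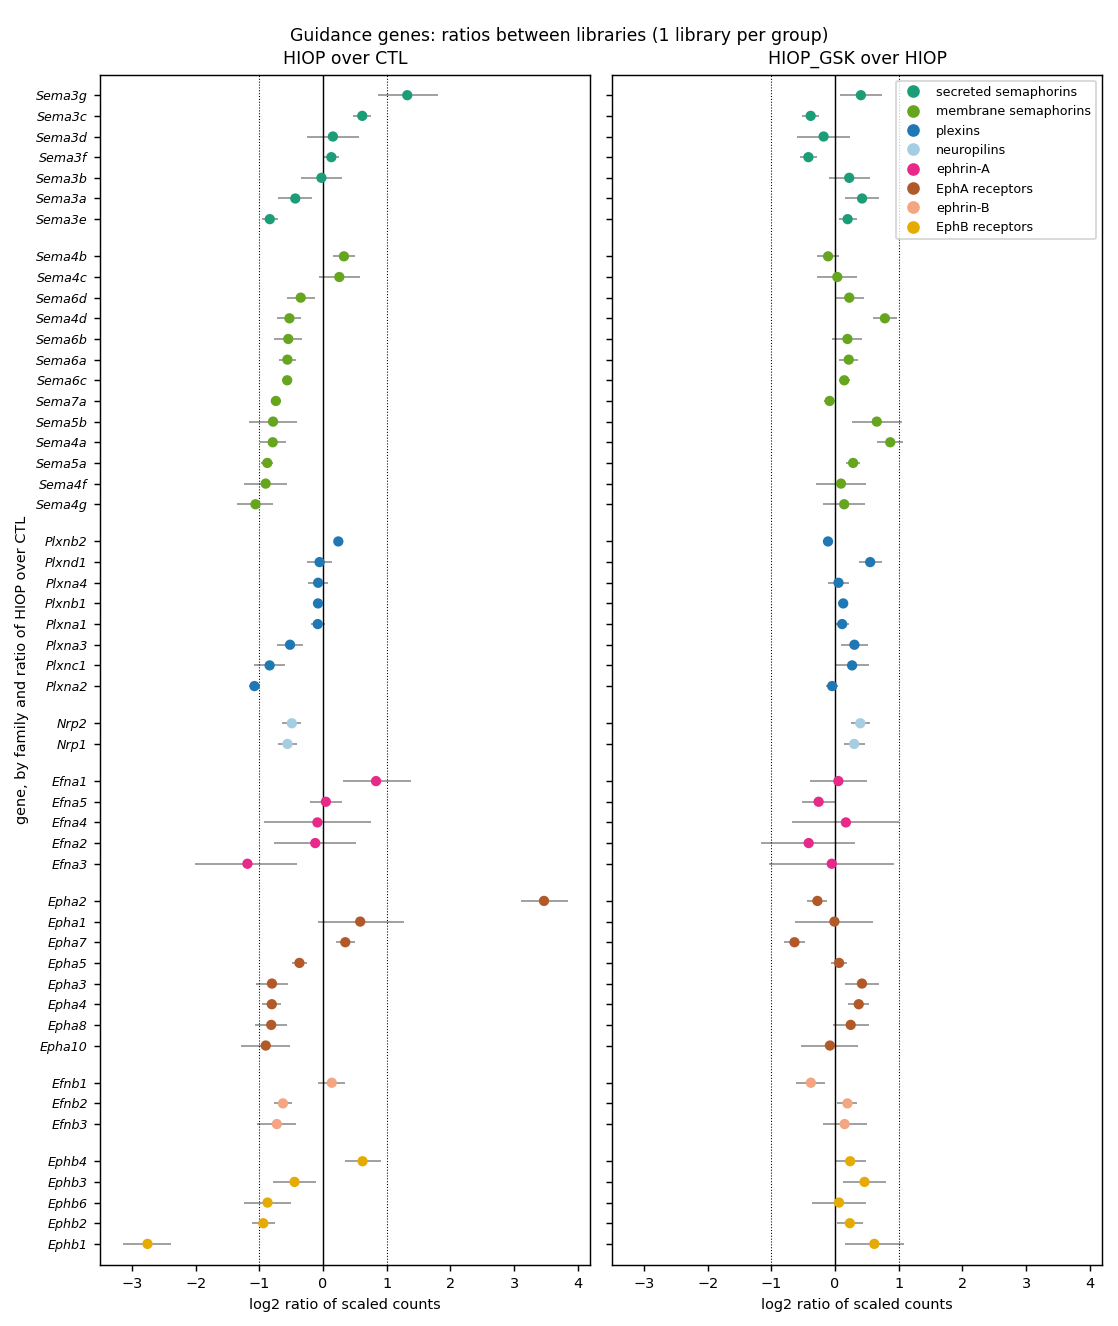
Log2 ratio of scaled counts (points) with 95% counting intervals (lines) for the 51 genes that passed the CPM minimum, grouped by family, for HIOP over CTL (left) and HIOP_GSK over HIOP (right); dotted lines mark 2-fold. On the left Epha2 and Ephb1 lie far outside the other genes, and on the right no point passes a dotted line.

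Receptors of semaphorins split into plexins near CTL and plexins well below it. Plxna2, which in mouse works with Sema6a in starburst amacrine cells, had 1553 counts in HIOP_GSK, 1804 in HIOP and 3581 in CTL. Both injured libraries held less than CTL, and HIOP was 2.11-fold lower (1.99 to 2.24). Plxnc1, the plexin that binds Sema7a, had 246 counts in HIOP_GSK, 230 in HIOP and 387 in CTL and was 1.79-fold lower (1.52 to 2.12) in HIOP than in CTL, and Plxna3 was 1.43-fold lower (1.25 to 1.64). By contrast, Plxna1, Plxna4, Plxnb1 and Plxnd1 had ratios of HIOP over CTL between 0.944 and 0.962 on counts. With the deposited TPM (pseudocount 0.5) their log2 ratios were -0.25, -0.26, -0.19 and -0.08 in that order, beside a median of -0.08 over all genes. The first 3 of these values lay below the counting interval. Plxnb2 was the plexin with a ratio above 1, 1.18 (1.12 to 1.24). Both neuropilins were lower in HIOP than in CTL. Nrp1, which also binds vascular endothelial growth factor, was 1.47-fold lower (1.32 to 1.64), and Nrp2 was 1.41-fold lower (1.27 to 1.56). The 8 plexins that passed the CPM minimum had a median log2 ratio of -0.08.

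Ephrins differed in direction. In the ephrin-A family, Efna3 had 18 counts in HIOP_GSK, 21 in HIOP and 45 in CTL and was 2.28-fold lower (1.33 to 4.03) in HIOP than in CTL, on few counts. It no longer counted as 2-fold lower in HIOP over CTL with a prior count of 10, and it did not reach the CPM minimum of 5. Efna1, the main ligand of EphA2, had 82 counts in HIOP_GSK, 89 in HIOP and 47 in CTL and was 1.78-fold higher (1.24 to 2.59) in HIOP than in CTL. Efna4 had 26 counts in each library, and Efna5, an ephrin of retinotectal maps, had 211 counts in HIOP_GSK, 284 in HIOP and 259 in CTL, with a ratio of HIOP over CTL of 1.03 (0.868 to 1.22). Efna1, Efna3 and Efna4 follow each other with no protein-coding gene between them in the RefSeq table of the assembly GRCr8. Of the ephrin-B genes, Efnb2, the ephrin of arterial endothelium and of EphB1 signalling at the optic chiasm in mouse, had 667 counts in HIOP_GSK, 656 in HIOP and 955 in CTL. It was 1.55-fold lower (1.4 to 1.71) in HIOP than in CTL. Efnb3 was 1.65-fold lower (1.34 to 2.05), and Efnb1 had a ratio of 1.1 (0.948 to 1.28).

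Eph receptors held the largest differences in both directions. Epha2, a receptor of epithelial cells that is also expressed in lens, had 588 counts in HIOP_GSK, 802 in HIOP and 68 in CTL. Both injured libraries lay far above CTL, and HIOP was 11.1-fold higher (8.65 to 14.4). By log2 ratio of HIOP over CTL it ranked 176 from the top of 15543 genes. The deposited TPM had the same order, with 12.3 TPM in HIOP_GSK, 14.4 in HIOP and 1.32 in CTL. Epha2 supplied 22.9% in HIOP_GSK, 26.2% in HIOP and 2.35% in CTL of the summed TPM of the 8 EphA genes, while that sum itself was 53.5 in HIOP_GSK, 55.2 in HIOP and 56.1 in CTL. The sums of the EphA family were thus close to each other while its makeup differed.

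Of the other EphA receptors, Epha10, Epha8, Epha4 and Epha3 were each lower in HIOP than in CTL. Epha10, which lacks kinase activity, was 1.87-fold lower (1.44 to 2.43) on counts, but its TPM was 1.14 in HIOP_GSK, 1.86 in HIOP and 2.32 in CTL, a smaller difference between HIOP and CTL. Epha4, a receptor that binds ephrins of both classes, had 674 counts in HIOP_GSK, 586 in HIOP and 963 in CTL and was 1.75-fold lower (1.58 to 1.94) in HIOP than in CTL. Epha3 and Epha8 were 1.75-fold lower (1.47 to 2.07) and 1.76-fold lower (1.47 to 2.1). Epha5, which is graded across the developing retina, was 1.29-fold lower (1.19 to 1.41). Epha7 had 469 counts in HIOP_GSK, 821 in HIOP and 606 in CTL and was 1.27-fold higher (1.15 to 1.42). Epha1 had a ratio of 1.5 (0.945 to 2.41) whose interval includes 1. Its TPM was 0.8 in HIOP and 0.84 in CTL, which is not higher in HIOP.

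EphB receptors were lower in HIOP than in CTL in 4 of 5 cases (80%, against 49.6% of all genes). Ephb1, which in mouse steers the uncrossed ganglion cell axons at the optic chiasm, had 94 counts in HIOP_GSK, 69 in HIOP and 439 in CTL. Both injured libraries lay far below CTL, and HIOP was 6.77-fold lower (5.24 to 8.85), rank 68 from the bottom of 15543 genes. Ephb2, which also guides ganglion cell axons, had 428 counts in HIOP_GSK, 410 in HIOP and 739 in CTL and was 1.92-fold lower (1.7 to 2.17) on counts, just short of the limit, while with the deposited TPM its log2 ratio of HIOP over CTL was -1.02. Ephb6, which lacks kinase activity, was 1.83-fold lower (1.42 to 2.38) and Ephb3 1.36-fold lower (1.09 to 1.72). Ephb4, the receptor of venous endothelium for ephrin-B2, went the other way. It had 286 counts in HIOP_GSK, 273 in HIOP and 167 in CTL and was 1.54-fold higher (1.26 to 1.87) in HIOP than in CTL. Ephb1 supplied 6.22% in HIOP_GSK, 6.96% in HIOP and 24.2% in CTL of the summed TPM of the 5 EphB genes, and Ephb4 31.4% in HIOP_GSK, 30.9% in HIOP and 11.8% in CTL.

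**Figure D4:**
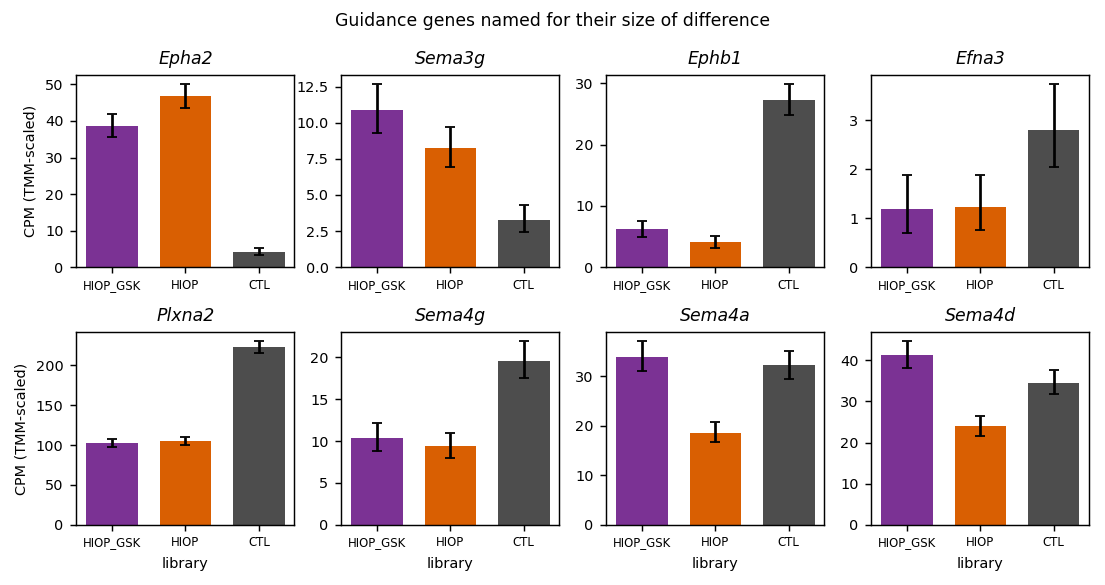
CPM with 95% counting intervals in HIOP_GSK, HIOP and CTL (1 library each) for the 6 genes at least 2-fold different in HIOP over CTL and for Sema4a and Sema4d, which were added after their values were seen. Epha2 and Sema3g are high in both injured libraries, Ephb1, Efna3, Plxna2 and Sema4g are low in both, and Sema4a and Sema4d are low in HIOP only.

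The promoters of the 2 higher genes and of the gene with the largest lower ratio are printed to show which sequence lies in front of each. They are the 250 bases before the start of the gene, 5′ to 3′, from the RefSeq promoter table of the build GRCr8, which is not the build Rnor_6.0 named for the counts. Epha2 lies at chr5:158888379-158888628 on the plus strand, Sema3g at chr16:6419775-6420024 on the plus strand and Ephb1 at chr8:111823760-111824009 on the minus strand. Capitals mark matches on either strand to a GC box (GGGCGG), the CCAAT box or a cyclic AMP response element (TGACGTCA), and no marked matches overlap.
Epha2: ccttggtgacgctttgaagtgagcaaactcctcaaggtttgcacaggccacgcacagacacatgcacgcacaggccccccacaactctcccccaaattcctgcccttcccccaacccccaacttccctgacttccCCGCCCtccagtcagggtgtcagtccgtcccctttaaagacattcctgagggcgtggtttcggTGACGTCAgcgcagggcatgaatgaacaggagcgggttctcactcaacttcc
Sema3g: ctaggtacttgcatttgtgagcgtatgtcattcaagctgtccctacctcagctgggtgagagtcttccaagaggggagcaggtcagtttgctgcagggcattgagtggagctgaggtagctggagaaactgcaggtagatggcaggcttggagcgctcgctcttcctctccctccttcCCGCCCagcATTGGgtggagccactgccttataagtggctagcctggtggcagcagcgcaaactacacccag
Ephb1: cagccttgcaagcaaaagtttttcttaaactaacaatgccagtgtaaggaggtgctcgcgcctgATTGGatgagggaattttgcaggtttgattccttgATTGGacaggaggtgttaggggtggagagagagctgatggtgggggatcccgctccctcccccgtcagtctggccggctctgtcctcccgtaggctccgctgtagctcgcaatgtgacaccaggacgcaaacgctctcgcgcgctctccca
The Epha2 window holds 1 GC box and 1 cyclic AMP response element that begins 52 bases before the start, the Sema3g window 1 GC box and 1 CCAAT box, and the Ephb1 window 2 CCAAT boxes. None of these 3 windows holds the letters of an AP-1 site (TGA and TCA with any 1 base between), a STAT site (TTCNNNGAA) or a hypoxia element (ACGTG). Of the other 2-fold members, the Efna3 window holds 3 GC boxes and 1 match to the STAT letters that begins 216 bases before the start, and the Plxna2 window holds 2 GC boxes. Of 27457 promoter windows of this length, 32.4% hold the GC box, 34.3% the CCAAT box, 1.70% the cyclic AMP response element, 6.36% the AP-1 letters, 7.52% the STAT letters and 16.9% the hypoxia element. Of the 42 guidance genes with a window, 22 hold the GC box, 15 the CCAAT box, 1 the cyclic AMP response element, 1 the AP-1 letters, 2 the STAT letters and 6 the hypoxia element. The CCAAT box and the cyclic AMP response element were searched after the sequences had been read, and a match is a string of letters, not a shown binding site.

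Summed by family, the membrane semaphorins had the widest gap between HIOP and CTL in TPM units, and the EphB receptors the widest as a fold. The membrane semaphorins were 1.68-fold lower in HIOP than in CTL and the EphB receptors 1.91-fold lower. The membrane semaphorins' summed TPM was 197 in HIOP_GSK, 170.0 in HIOP and 285 in CTL, and that of all 28 ligands was 299.5 in HIOP_GSK, 278 in HIOP and 411 in CTL. The 24 receptors summed to 195 in HIOP_GSK, 185 in HIOP and 229.6 in CTL. Secreted semaphorins differed little, with 55.7 in HIOP_GSK, 58.4 in HIOP and 65.2 in CTL, and so did ephrin-A genes, with 21.4 in HIOP_GSK, 24.7 in HIOP and 25.3 in CTL. The sums of the EphB receptors were 18.2 in HIOP_GSK, 15.5 in HIOP and 29.6 in CTL. Plexins summed to 105 in HIOP_GSK, 98.8 in HIOP and 120.3 in CTL, and the neuropilins to 19 in HIOP_GSK, 15.4 in HIOP and 23.6 in CTL.

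**Figure D5:**
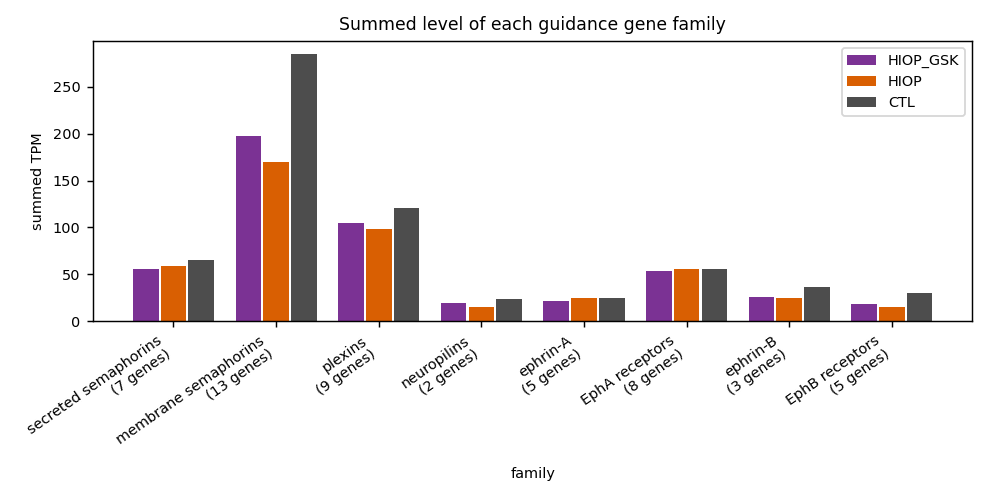
Summed deposited TPM of each family in HIOP_GSK, HIOP and CTL (bars, 1 library each, no error bars). The membrane semaphorins show the widest gap in TPM units, at 197 in HIOP_GSK, 170.0 in HIOP and 285 in CTL, while the EphA receptors are nearly level.

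HIOP_GSK was next set against HIOP, the pair of injured libraries that differ by the drug in the labels. No guidance gene that passed the CPM minimum was at least 2-fold different, where 4.56% of all genes were past that limit upward and 1.69% downward. Small differences were mostly upward. Of the 51 genes, 15 had a ratio below 1, against 50.4% of all genes, and 36 (70.6%) had a ratio above 1, against 49.6% of all genes, and the median log2 ratio was 0.15, against 0.00 over all genes. The medians of ligands and receptors were 0.15 and 0.23.

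At 1.5-fold, 4 members were higher in HIOP_GSK (7.84%, against 9.68% of all genes) and 1 lower (1.96%, against 4.82%). Sema4a, whose loss in mouse damages photoreceptors, had 517 counts in HIOP_GSK, 319 in HIOP and 519 in CTL. HIOP_GSK lay beside CTL and HIOP below both, and HIOP_GSK was 1.82-fold higher (1.58 to 2.1) than HIOP. Sema4d, the ligand of plexin B1 that is also found on leukocytes and oligodendrocytes, had 627 counts in HIOP_GSK, 410 in HIOP and 556 in CTL. HIOP was the lowest library again, and HIOP_GSK was 1.72-fold higher (1.52 to 1.95). Sema5b had 133 counts in HIOP_GSK, 95 in HIOP and 154 in CTL and was 1.58-fold higher (1.2 to 2.07). Ephb1 was 1.53-fold higher (1.11 to 2.12) on counts, but its TPM was 1.13 in HIOP_GSK, 1.08 in HIOP and 7.19 in CTL, almost level between HIOP_GSK and HIOP. The 1 lower gene was Epha7, at 1.56-fold lower (1.39 to 1.75).

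Of the members with smaller differences between HIOP_GSK and HIOP, those named here were chosen after their values were seen. Plxnd1, the receptor of Sema3e on endothelium, had 564 counts in HIOP_GSK, 433 in HIOP and 423 in CTL, and HIOP_GSK was 1.47-fold higher (1.29 to 1.66) than HIOP. Nrp1 was 1.23-fold higher (1.1 to 1.38) and Nrp2 1.32-fold higher (1.19 to 1.46). Sema3g was 1.32-fold higher (1.05 to 1.67), and Ephb4 had a ratio of 1.18 (0.995 to 1.4), an interval that includes 1. On the other side, Sema3c was 1.3-fold lower (1.19 to 1.43), Sema3f 1.34-fold lower (1.22 to 1.47) and Efnb1 1.3-fold lower (1.11 to 1.53). Epha2 was 1.21-fold lower (1.09 to 1.35) in HIOP_GSK than in HIOP. Plxna2, Sema7a, Sema4g, Efna3 and Efna1 had ratios of HIOP_GSK over HIOP between 0.942 and 1.1. For Efna3, on few counts, the interval was wide (0.484 to 1.9), and its TPM was 2.9 in HIOP_GSK, 1.91 in HIOP and 4.94 in CTL.

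Set against CTL, the HIOP_GSK library had 2 guidance genes at least 2-fold higher (3.92%, against 10.4% of all genes) and 3 at least 2-fold lower (5.88%, against 6.32%). This comparison and HIOP over CTL share the CTL library, so their values are given side by side only. Epha2 was 9.15-fold higher (7.11 to 11.9) in HIOP_GSK than in CTL, where HIOP had been 11.1-fold higher. Sema3g was 3.31-fold higher (2.42 to 4.6). Ephb1 was 4.41-fold lower (3.53 to 5.58), Plxna2 2.18-fold lower (2.05 to 2.32) and Efna3 2.36-fold lower (1.34 to 4.34). Sema4g, at 1.89-fold lower (1.56 to 2.3), was within the 2-fold limit here. Of the 51 genes, 17 had a ratio of HIOP_GSK over CTL above 1 and 34 below 1, against 50.1% and 49.9% of all genes. At 1.5-fold, 4 were higher, against 17.6% of all genes, and 11 lower, against 16.6%. Efna3 did not count as 2-fold lower in HIOP_GSK over CTL with a prior count of 10 or with the deposited TPM. The median log2 ratio over CTL was -0.24 in HIOP_GSK and -0.49 in HIOP.

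Genes that act with these receptors were read from lists chosen for the pathway, with earlier results of these data known. In the semaphorin and plexin signalling list, HIOP over CTL passed 2-fold upward for 5 of 35 measured genes (14.3%, against 9% of all genes) and downward for 1 (2.86%, against 8.04%). The list had a median log2 ratio of 0.07. Rnd1, a small GTPase that binds plexin tails, had 147 counts in HIOP_GSK, 597 in HIOP and 92 in CTL. HIOP stood above the other libraries for Rnd1, 6.1-fold higher (4.89 to 7.68) than CTL, and HIOP_GSK was 3.61-fold lower (3.01 to 4.35) than HIOP. In HIOP_GSK over HIOP this list had 1 gene past 2-fold in each direction (2.86% each, against 4.56% of all genes upward and 1.69% downward). Rnd1 was the lower one, and the higher one was Fes, a kinase that binds plexin A1, with 153 counts in HIOP_GSK, 82 in HIOP and 47 in CTL. HIOP_GSK was 2.1-fold higher (1.59 to 2.78) than HIOP for Fes. Itgb1, the integrin subunit bound by Sema7a, was 3.86-fold higher (3.65 to 4.1) in HIOP than in CTL, and Chl1, an adhesion molecule that partners with neuropilin-1, was 2.98-fold higher (2.71 to 3.28). Rnd2, another GTPase of the same family, had 166 counts in HIOP_GSK, 143 in HIOP and 337 in CTL and was 2.51-fold lower (2.06 to 3.07) in HIOP than in CTL.

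The ephrin and Eph signalling list held 30 adaptors, kinases and exchange factors, and none was 2-fold different in HIOP over CTL or in HIOP_GSK over HIOP. Of all genes, 9% were past that limit upward and 8.04% downward in HIOP over CTL. In HIOP_GSK over HIOP these shares were 4.56% and 1.69%. The median log2 ratio of the list in HIOP over CTL was -0.14. Its range ran from -0.86 for Chn1, a Rac-inactivating protein that acts after EphA4, to 0.36 for Kalrn, an exchange factor for small GTPases. In the list of other guidance ligands and receptors, HIOP over CTL passed 2-fold downward for 6 of 33 measured genes (18.2%, against 8.04% of all genes) and upward for 2 (6.06%, against 9%). Its median log2 ratio was -0.57. Omg, a myelin protein that inhibits axon growth, had 96 counts in HIOP_GSK, 65 in HIOP and 440 in CTL and was 7.2-fold lower (5.54 to 9.49) in HIOP. Dcc, the netrin receptor, was 2.43-fold lower (2.08 to 2.84), and Lingo1, a co-receptor for inhibitors of axon growth, was 2.32-fold lower (2 to 2.7). Unc5b, a netrin receptor of endothelium, was 2.5-fold higher (2.15 to 2.91), and Flrt3, an adhesion protein that binds Unc5 receptors, was 2.26-fold higher (2.01 to 2.54).

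Markers of several cell types differed between the libraries alongside the guidance genes. Of all genes, 9% were at least 2-fold higher and 8.04% lower in HIOP over CTL. In HIOP_GSK over HIOP these shares were 4.56% and 1.69%. Bipolar cell markers, which fit the labelled tissue, had a summed TPM of 464 in HIOP_GSK, 511 in HIOP and 825 in CTL. Ganglion cell markers summed to 279 in HIOP_GSK, 246 in HIOP and 593 in CTL, with 8 of 11 at least 2-fold lower in HIOP than in CTL, and amacrine markers to 275 in HIOP_GSK, 219 in HIOP and 565 in CTL, with 4 of 7. Müller glia markers summed to 1565 in HIOP_GSK, 1148 in HIOP and 1949.6 in CTL. In HIOP over CTL, 6 of these 8 were at least 2-fold lower and 1, Vim, was at least 2-fold higher (log2 ratio 1.24). Pigment epithelium markers summed to 334 in HIOP_GSK, 234 in HIOP and 562 in CTL. All 6 of those that passed the CPM minimum were at least 2-fold lower in HIOP than in CTL. Cone markers summed to 106 in HIOP_GSK, 129 in HIOP and 347 in CTL, with 6 of 7 at least 2-fold lower in HIOP than in CTL, and markers of pericytes and smooth muscle to 56.6 in HIOP_GSK, 49.6 in HIOP and 131 in CTL, with 5 of 8. Astrocyte markers summed to 114 in HIOP_GSK, 36 in HIOP and 72.5 in CTL, but only 2 of the 4 passed the CPM minimum. These 2 did not move together. S100b was lower in HIOP than in CTL (log2 ratio -1.33), while Gfap was almost level (0.06). Gfap was higher in HIOP_GSK than in HIOP (log2 ratio 2.11), while S100b differed little (0.11). The part of these cell types in the guidance gene differences was not tested. Beside Sema3g, Ephb4 and Plxnd1, the TPM of the 11 vascular endothelium markers summed to 90.5 in HIOP_GSK, 58.8 in HIOP and 71.7 in CTL. Their summed CPM was 336 in HIOP_GSK, 230 in HIOP and 190 in CTL, so HIOP and CTL stood in the other order. In HIOP over CTL, 2 of these markers were past 2-fold upward and 2 downward. In HIOP_GSK over HIOP, 3 were past 2-fold upward and 0 downward, and all 11 had ratios above 1, against 49.6% of all genes. The part of endothelium was not tested. Microglia markers, beside Sema4d, summed to 124 in HIOP_GSK, 58.2 in HIOP and 63.3 in CTL. In HIOP over CTL, 3 of these 8 were at least 2-fold lower (down to a log2 ratio of -1.99 for P2ry12). In the same comparison 1, C1qb, was at least 2-fold higher (1.08). In HIOP_GSK over HIOP, 6 were at least 2-fold higher and 0 lower. Oligodendrocyte markers summed to 15.1 in HIOP_GSK, 12.6 in HIOP and 18.7 in CTL. Neither microglia nor oligodendrocytes were tested as a source. Among neutrophil and monocyte markers, 5 of 8 had no count in CTL. The TPM of the 8 summed to 262 in HIOP_GSK, 309.6 in HIOP and 0.97 in CTL. Their summed CPM was 187 in HIOP_GSK, 151 in HIOP and 1.86 in CTL, so HIOP_GSK and HIOP stood in the other order. The part of these blood cells in the guidance gene differences was not tested.

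Beside Epha2 stand lens and surface epithelium, which also express it. The TPM of the 8 lens markers summed to 13353 in HIOP_GSK, 1801 in HIOP and 452 in CTL, with 7 of 8 at least 2-fold higher in HIOP than in CTL, and the part of lens RNA in the Epha2 difference between HIOP and CTL was not tested. HIOP_GSK held 7.41 times the lens level of HIOP. Epha2 was 1.21-fold lower (1.09 to 1.35) in HIOP_GSK than in HIOP, and the part of lens RNA in this difference was not tested either. The TPM of the 7 corneal and surface epithelium markers summed to 72.4 in HIOP_GSK, 17.5 in HIOP and 279 in CTL, and Kera was at 0 counts in HIOP. The part of surface epithelium in the Epha2 differences was not tested.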

How the data were processed

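Retinal RNA of 3 libraries was analysed. The build Rnor_6.0, RSEM 1.3.1 and STAR 2.5.4b are listed in the submitters' processing notes, without their roles. Each deposited table gives whole-number counts, not normalized, and the authors' TPM, scaled to a fixed sum per library, for 32883 genes. Counts and TPM do not match gene by gene: 17, 17 and 19 genes in HIOP_GSK, HIOP and CTL had no count but a TPM over 1. How strand was counted is not given in the sources used; overlapping and antisense genes are therefore uncertain, as are close paralogs.

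Counts were scaled with TMM in edgeR 4.0.16 (R 4.3.3), with factors of 1.006, 0.994 and 1.000 for HIOP_GSK, HIOP and CTL. The filter kept genes that reached a CPM of 1 in any library. Calls used a limit of 2-fold on log2 CPM (prior count 2). Folds are ratios of scaled counts with exact Clopper-Pearson intervals at 95%. The functions were tested on simulated counts. Alternatives were a limit of 1.5-fold, prior counts of 0.5 and 10, a CPM minimum of 5 or no filter, the deposited TPM (pseudocount 0.5), and scaling by total counts, by DESeq2 1.42.0 or with mitochondrial and the 20 top genes left out.

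The members and lists were chosen with earlier results of these data known. Every member could be named; values in every library were given for members at least 2-fold different in HIOP over CTL or HIOP_GSK over HIOP with an interval that excludes 1, and Sema4a, Sema4d and other members were described in full after their values were seen. Of each pathway list, up to 3 genes per direction were named by the interval bound farthest from no difference. Promoters of 42 members were matched by symbol in the RefSeq table of GRCr8. The marker Pecam1 was not analysed here.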

Additional observations from a re-analysis of the deposited data

How the results depend on the processing

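No paired analysis was possible because each group holds 1 library, and no library could be left out. Counts of guidance genes at least 2-fold different stayed within 1.5 times under total counts, DESeq2 size factors, the CPM minimum of 5, both prior counts and the scaling without abundant genes. In HIOP over CTL, the deposited TPM left 1 gene at least 2-fold higher, since Sema3g fell short. The limit of 1.5-fold gave 5 higher and 19 lower in HIOP over CTL, 4 higher and 1 lower in HIOP_GSK over HIOP, and 4 higher and 11 lower in HIOP_GSK over CTL, by construction. Without the filter on low counts, 1 gene was at least 2-fold higher in HIOP_GSK over HIOP. This was Plxnb3, with 6 counts in HIOP_GSK and 1 in HIOP, a ratio of 6.75 (0.819 to 310.5). Counts of genes with a ratio below 1 ran from 34 to 38 in HIOP over CTL, from 12 to 15 in HIOP_GSK over HIOP and from 32 to 39 in HIOP_GSK over CTL. These direction counts were added after the data were seen. Of the recomputed log2 ratios of single members, 1192 stayed within their counting interval and 20 left it, all with the deposited TPM. No called value reversed. The settings that change only the filter reuse the same ratios and could not move one. With the deposited TPM, 13 of 51 members left their interval in HIOP over CTL, 6 in HIOP_GSK over CTL and 1 in HIOP_GSK over HIOP. Low counts limit Efna2, Efna3, Efna4, Epha1 and Plxnb3, each with at most 51 counts in any library.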

Other observations

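The entry AABR07033882.1, which the symbol rule did not select, is given by the RefSeq table of GRCr8 as an older name of Epha6, a receptor of the EphA family. It had 266 counts in HIOP_GSK, 243 in HIOP and 202 in CTL, and 7.32 TPM in HIOP_GSK, 5.55 in HIOP and 6.13 in CTL. Its ratio of HIOP over CTL was 1.13 (0.935 to 1.37) and that of HIOP_GSK over HIOP 1.23 (1.03 to 1.47), within 2-fold in both.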
